A study of Saccharomyces cerevisiae with 16 samples.

Results

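Immunoprecipitation (IP) of the DNA helicase Rrm3 was compared with IP of Pol2, which carries the catalytic activity of DNA polymerase epsilon, across the budding yeast genome. Of the 16 arrays of the series, 9 belonged to this comparison. The 5 Rrm3 arrays (041, 031, 088, 184 and 185) and the 4 Pol2 arrays from cells with RRM3 intact (039, 086, 136 and 230) were chosen by their titles, and no measured value entered that choice. The IP in each case was from haploid W303a cells grown asynchronously in rich YEPD medium and fixed, at an optical density of 0.25 where the labels give one. Rrm3 or Pol2 carried a 13MYC tag and was pulled down with a MYC antibody, so both groups shared the tag and the antibody and no gene was deleted in either. The extraction text of Pol2 array 086 names an antibody to methylated histone H3 as well. Sheared IP DNA and input DNA were labelled with different dyes and hybridised together to arrays of PCR products. The products covered open reading frames (ORFs), the intergenic regions between them, and noncoding and repeated elements. Some arrays are titled dye swaps. The labels do not say which arrays share an extract or a culture, so p-values measure the spread between these arrays, which may be technical.

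Rrm3 belongs to the Pif1 family of helicases. It travels with the replication fork and helps it past stable complexes of protein and DNA, and without it forks are known to slow at tRNA genes, the ribosomal DNA (rDNA) barrier, centromeres, telomeres and the silent mating loci. DNA polymerase epsilon synthesises the leading strand, and in an asynchronous culture its IP marks DNA that the fork passes or lingers on. The comparison therefore asks whether the helicase was distributed along the genome differently from the polymerase it travels with. A value here is the log2 ratio of IP over input, centred on the median of its array, so that 0 is the typical feature of that array. A difference is the Rrm3 IP minus the Pol2 IP from a fit with the dye orientation as a covariate, and 1 unit is a doubling of the ratio.

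No feature differed between the IPs beyond the spread of the arrays once all tests were taken into account. With limma and Benjamini-Hochberg adjustment over 12411 features measured on at least 3 arrays of each group, 0 features (0%) were higher and 0 lower in the Rrm3 IP at an adjusted p under 0.05. At an unadjusted p under 0.05 there were 713 features (5.74%), of which 321 were higher and 392 lower. The smallest adjusted p, 0.383, was shared by 3 features, all of mitochondrial DNA. The median standard error (SE) of a difference was 0.32, at which the 95% interval of a single feature reaches 0.69 to each side. At that SE a lone feature would have needed a difference of 2.51 to pass, and the fitted differences ran from -1.92 to 1.88. Differences over 1 in size were fitted for 77 features above and 65 below. In the plot of difference against p, every point lies under the line for a single call.

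**Figure D1:**
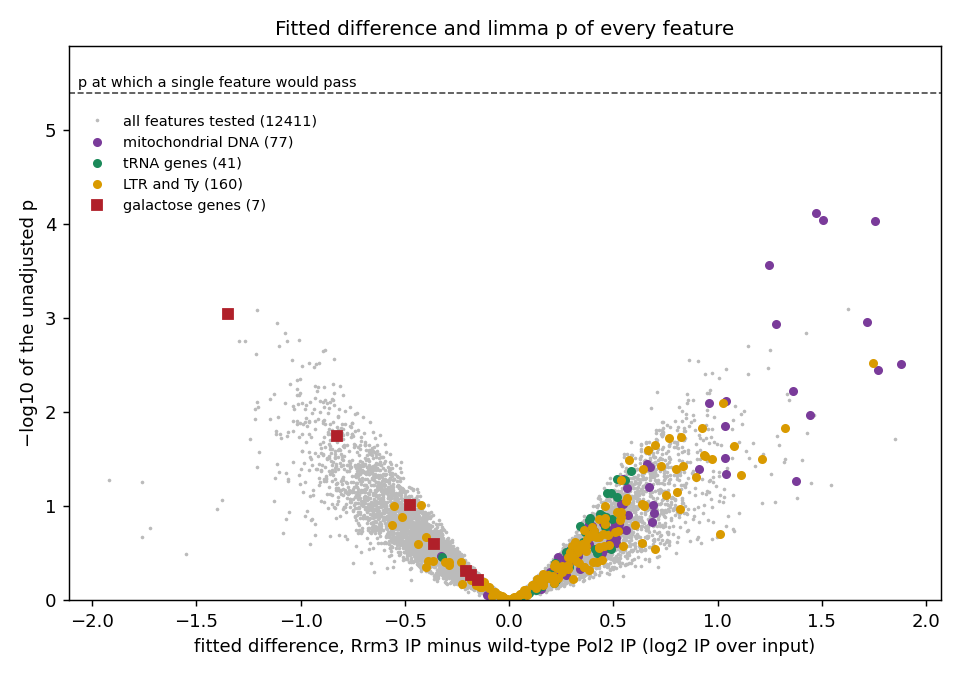
Fitted difference between the Rrm3 IP and the wild-type Pol2 IP (log2, horizontal) against -log10 of the unadjusted limma p (vertical) for 12411 features, with mitochondrial DNA, tRNA genes, LTR and Ty elements, and galactose genes coloured. No feature reaches the dashed line, the p that 1 feature alone would need, and the smallest p is 7.68e-05.

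The arrays were uneven in ways that touch every value that follows. The spread of log ratios (median absolute deviation) was 0.332 to 0.457 on the Pol2 arrays and 0.415 to 1.06 on the Rrm3 arrays. The largest spread was that of Rrm3 array 031, whose correlation with the other 8 arrays over features was 0.04 to 0.23. Pol2 array 136 had 49.7% of its spots flagged and gave values for 6810 features, and its deposited ratios run opposite to its dye label. It is not titled a dye swap, but the deposited direction was kept and the dye term counted it with the swapped arrays. Of the features tested, 5719 had no value on array 136. The orientation of the deposited table went with similarity more than the protein did. Without array 031, the median correlation was 0.42 over 8 pairs of an Rrm3 and a Pol2 array of the same orientation, and 0.27 over 8 pairs of the same protein in opposite orientations. Pairs of the same protein and orientation had a median of 0.49 over 4 pairs, and pairs that shared neither a median of 0.20 over 8 pairs. These correlations are across features of arrays with a common design and are given as a description. Beyond the dye term, orientation was followed only by fits to the arrays of each orientation alone. Its part in the differences below was not tested. The number of arrays limits the precision of every value.

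**Figure D2:**
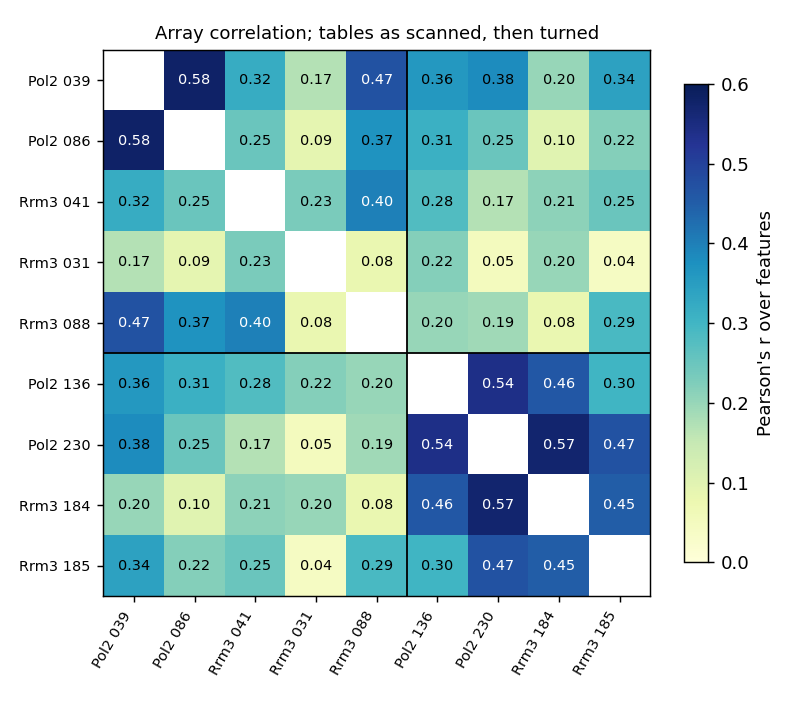
Pearson's r over features between each pair of the 9 arrays, with the arrays whose deposited ratios run as scanned first and those turned in sign after the black line. The highest values, 0.58 between Pol2 arrays 039 and 086 and 0.57 between Pol2 array 230 and Rrm3 array 184, lie within an orientation, and Rrm3 array 031 is pale throughout.

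Because no feature passed, groups of features are described by their median difference and by how many members had every Rrm3 value on the same side of every Pol2 value (separated). Over all features tested, 337 (2.72%) had all Rrm3 arrays above all Pol2 arrays and 290 (2.34%) had them below. The shares differed by whether array 136 had a value. Among features with no value on array 136 the shares were 4.39% above and 1.73% below, and among the 6692 with a value there 1.29% above and 2.85% below. Without array 031, the shares were 5.44% above and 3.74% below of 12253 features. Intergenic regions made up 47.6% of the features tested, 59.1% of the 337 above and 30.0% of the 290 below. Of the 337, 189 had a mean above the array median in the Rrm3 IP and below it in the Pol2 IP, 100 were above it in both and 48 below it in both. Of the 290, 204 were above the median in the Pol2 IP and below it in the Rrm3 IP. With array 136 turned as its label says, 339 features were separated upward and 259 downward. Turning moves a value far below the array median as far above it, so it raises the Pol2 values of features low in that IP. A feature below the median on array 136 and on any Rrm3 array then cannot be separated upward. Features with no value on array 136 are not changed by the turn.

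tRNA genes, which RNA polymerase III transcribes and where forks are known to depend on Rrm3, were higher in the Rrm3 IP on 4 of 5 arrays. The median over the 41 tRNA genes tested (of 42) was -0.03, 0.02, -0.11 and 0.03 on Pol2 arrays 039, 086, 136 and 230. On Rrm3 arrays 041, 088, 184 and 185 it was 0.52, 0.55, 0.45 and 0.51, and on array 031 it was -0.29. Those 4 Rrm3 arrays thus lay above all Pol2 arrays, and array 031 lay below them. The median difference was 0.35, against 0.00 over all features, and 37 of the 41 differences were positive. In 6 genes all Rrm3 values lay above all Pol2 values and in 0 below. Without array 031 the median was 0.49 and 29 of 41 genes (70.7%) were separated upward. The median was 0.19 on the arrays as scanned alone, and 0.46 over 19 genes on the turned arrays alone. Only 20 of the tRNA genes had a value on array 136, of which 1 was separated upward, against 5 of the 21 without one.

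The arginine tRNA gene TR(UCU)M2 had log2 ratios of -0.16, 0.02 and 0.22 on Pol2 arrays 039, 086 and 230. Its Rrm3 values were 0.50, 0.84, 0.69, 0.49 and 0.54 on arrays 041, 031, 088, 184 and 185. No Rrm3 value overlapped a Pol2 value, with a difference of 0.58 ± 0.25 (SE; limma adjusted p = 0.839). The tryptophan tRNA gene TW(CCA)P came next at 0.56 ± 0.26, with Rrm3 values of 0.32 to 1.11 above Pol2 values of 0.10 to 0.18. At the other end, TR(CCG)L had a difference of -0.32 ± 0.33 and TQ(UUG)L one of -0.01 ± 0.46, and in both the value on array 031 was the lowest, at -1.18 and -1.86. Intergenic regions beside tRNA genes went the same way with a smaller median of 0.22 over 450 regions. Of these, 37 (8.22%) were separated upward and 0 downward, among them 11 of the 241 measured on array 136 (4.56%). Their per-array medians were -0.07 to 0.01 in the Pol2 IP, 0.19 to 0.28 on 4 Rrm3 arrays, and -0.18 on array 031.

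**Figure D3:**
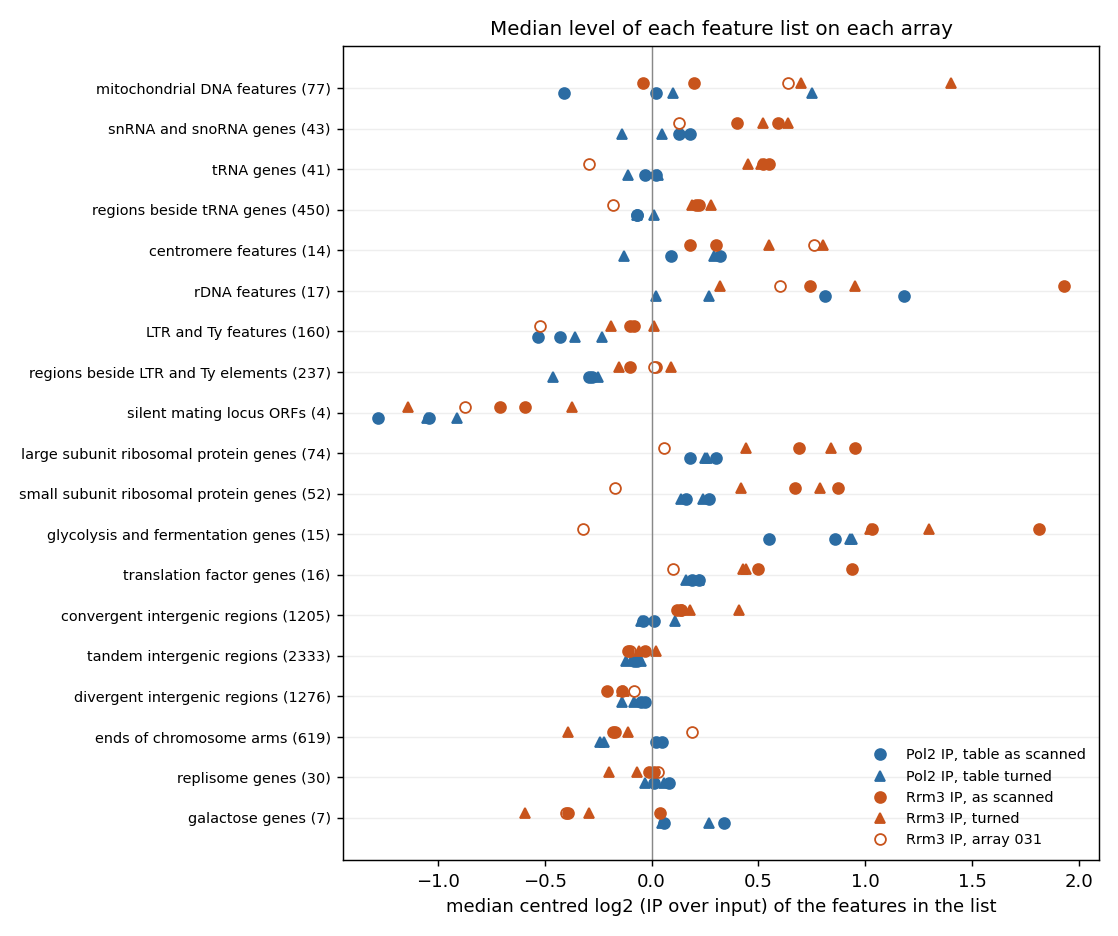
Median centred log2 ratio of IP over input of each feature list (number tested in brackets) on each array, with Pol2 arrays in blue, Rrm3 arrays in orange, array 031 open, and triangles for arrays turned in sign. For tRNA genes, 4 Rrm3 arrays lie between 0.45 and 0.55, to the right of every Pol2 array, while array 031 lies at -0.29.

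snRNA and snoRNA genes, whose RNAs act in splicing and in modification of ribosomal RNA, had a median difference of 0.36 over 43 genes, and 39 differences were positive. Their median on Pol2 arrays 039, 086, 136 and 230 was 0.18, 0.13, -0.14 and 0.05. On Rrm3 arrays 041, 031, 088, 184 and 185 it was 0.40, 0.13, 0.59, 0.64 and 0.52, so array 031 alone fell within the Pol2 range. In 7 genes (16.3%) the Rrm3 values were all above the Pol2 values, and in 0 all below. The box C/D snoRNA gene SNR67 had Pol2 values of -1.28, -0.49 and -0.83 on arrays 039, 086 and 230. Its Rrm3 values were 0.27, 0.55, -0.25, 1.06 and -0.26, all higher, with a difference of 1.13 ± 0.36 (limma adjusted p = 0.839). SNR37 had the largest difference, 1.34 ± 0.41, but its value of -0.59 on Rrm3 array 088 lay below the -0.54 of Pol2 array 230. The lowest members were SNR44 at -0.06 ± 0.48 and SNR45 at -0.04 ± 0.33.

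The rDNA repeat, which holds a programmed fork barrier, was high in both IPs and highly variable. The median over its 17 features was 1.18, 0.81, 0.02 and 0.27 on Pol2 arrays 039, 086, 136 and 230, and 0.74, 0.60, 1.93, 0.32 and 0.95 on Rrm3 arrays 041, 031, 088, 184 and 185. The ranges overlapped, the median difference was 0.26 (-0.04 with every array scaled to the same spread; 0.05 without array 088, 0.10 without 185 and 0.42 without 184), and in 0 of the 17 features were the groups separated in either direction. RDN18-1, of the 18S rRNA, had the largest difference at 0.86 ± 0.44, and RDN25-1A, of the 25S rRNA, the lowest at -0.51 ± 0.52. RDN25-1, another 25S feature, was 0.79 ± 0.53 and the spacer feature IRDN5-1 -0.46 ± 0.52. These features share a repeated sequence and are not independent.

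Centromere features, where the kinetochore assembles, had a median difference of 0.34 over 14 features (0.22 without array 184), with 13 positive. Their median was -0.13 to 0.32 on Pol2 arrays and 0.18, 0.76, 0.30, 0.80 and 0.55 on Rrm3 arrays 041, 031, 088, 184 and 185, of which 3 lay above the Pol2 range. The 3 separated features (21.4%, against 2.72% of all features), named here after their values were seen, were CEN4, CEN5 and CEN8. CEN5 (0.36 ± 0.27) had values on 3 Rrm3 and 4 Pol2 arrays, and CEN8 (0.77 ± 0.35) on 3 of each. Groups separate more easily with fewer arrays. CEN4 had values of -0.31, -0.63 and -0.12 on Pol2 arrays 039, 086 and 230. On the Rrm3 arrays it had 0.31, 0.71, 0.29, 0.69 and 0.27, all higher, and a difference of 0.79 ± 0.27. CEN3 was next at 0.78 ± 0.41 with overlapping groups, and CEN9 was lowest at -0.17 ± 0.29. The dimness of these spots is a limit, since their median input signal lay at percentile 22.8. Regions beside centromeres had a median of 0.23 over 15 features (0.37 without array 230), from ICEN4 at 0.69 ± 0.29 to ICEN8 at -0.26 ± 0.31.

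Telomere features had a median difference of 0.07 over 8 (-0.20 with arrays scaled to the same spread, and -0.11 without array 185 to 0.22 without array 041), from TEL15R-2 at 0.39 ± 0.37 to TEL15R-4 at -0.48 ± 0.28. None was separated, and the per-array medians of the IPs overlapped widely, from -0.32 to 0.75 for Pol2 and 0.04 to 0.77 for Rrm3. The telomere median was -0.13 on the arrays as scanned alone, and 0.40 over 2 features on the turned arrays alone. The ends of chromosome arms, a set of 619 ORFs and regions, had a median of -0.10 (-0.05 without array 184, -0.18 without array 185), with 8 separated upward and 25 (4.04%) downward. The subtelomeric families had medians of -0.23 (COS, 12 genes), -0.07 (PAU, 23 genes) and -0.17 (YRF1, the Y' element helicase genes, 7 genes), and none of their members was separated. These medians rested on single arrays, and leaving out 1 array gave -0.34 (without 185) to -0.09 (without 184) for COS, -0.35 (without 031) to 0.09 (without 184) for PAU, and -0.35 (without 185) to -0.00 (without 184) for YRF1. On array 031 the PAU median was 1.15, against -0.82 to -0.23 on the other Rrm3 arrays. The PAU median difference was 0.10 on the arrays as scanned alone and -0.41 on the turned arrays alone. COS, PAU and YRF1 genes are families of related sequence, alike to different degrees, whose signals the PCR products may share. Among ORFs named for the silent mating loci, HMRA2 had Pol2 values of -1.24, -0.92 and -0.90. Its Rrm3 values were -0.17, -0.11, -0.71, -0.78 and 0.10. These groups were separated, with a difference of 0.68 ± 0.30 (limma adjusted p = 0.839). The other ORFs of this list overlapped, with differences of 0.49 ± 0.30 at HMRA1, 0.20 ± 0.30 at HMLALPHA2 and -0.35 ± 0.24 at HMLALPHA1. HMR sequences can also be present at the active mating type locus, and the spots cannot tell these apart. The median of the 4 ORFs was 0.34 (0.58 without array 184, 0.18 without array 185), and it became -0.17 with array 136 turned as its label says.

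Long terminal repeats (LTRs) and Ty elements, the yeast retrotransposons, were below the array median in both IPs and less so in the Rrm3 IP. Over 160 features the median was -0.43, -0.53, -0.23 and -0.36 on Pol2 arrays 039, 086, 136 and 230, and -0.10, -0.52, -0.08, 0.01 and -0.19 on Rrm3 arrays 041, 031, 088, 184 and 185. Array 031 again fell in the Pol2 range and the other 4 lay above it. The median difference was 0.29, with 12 features (7.50%) separated upward and 0 downward. Of the 12, 11 had no value on array 136, and 1 of the 74 features measured there (1.35%) was separated, near the 1.29% of all features measured there. The median was 0.14 with array 136 turned as its label says. Regions beside LTRs and Ty elements had a median of 0.28 over 237 regions, with 24 (10.1%) separated upward and 0 downward, and here all 5 Rrm3 arrays (-0.15 to 0.09) lay above all Pol2 arrays (-0.46 to -0.25). The LTR YKRWDELTA10 had Pol2 values of -1.57, -1.69 and -1.30 and Rrm3 values of 0.04, 0.89, -1.09, 1.51 and 0.00, a difference of 1.75 ± 0.46 (limma adjusted p = 0.839). The region IYLRCDELTA9 was at -1.53, -0.83 and -1.11 on Pol2 arrays 039, 086 and 230 and at 0.22, 0.64, 1.04 and 0.06 on Rrm3 arrays 041, 031, 184 and 185, a difference of 1.63 ± 0.34. IYELCDELTA4 had a difference of 1.85 ± 0.66, in which the Pol2 value on array 039 was -4.50. The lowest members were the Ty features YPLCTY4-1D at -0.56 ± 0.37 and YILWTY3-1B at -0.55 ± 0.31. These sequences occur in many copies, so a spot can gather signal from several of them. A region counted as beside an LTR or Ty element was named for one, so the list shares no region with that of tRNA genes, although tRNA genes and Ty elements lie near each other in yeast.

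Mitochondrial DNA, which lies outside the nucleus, gave the 3 smallest p-values and the highest fitted difference. The median difference over its 77 features was 0.47 (0.30 without array 184), with 74 positive, 8 (10.4%) separated upward and 0 downward. The group medians overlapped, however, at 0.02, -0.41, 0.10 and 0.75 on Pol2 arrays 039, 086, 136 and 230, and -0.04, 0.64, 0.20, 1.40 and 0.70 on Rrm3 arrays 041, 031, 088, 184 and 185. In both IPs the arrays turned in sign had higher medians than those as scanned. The features with the largest differences were low in the Pol2 IP. INTQ0185A had log2 ratios of -3.32, -3.34, -3.90 and -3.25 on the Pol2 arrays and -2.27, -1.72, -2.02, -1.73 and -2.13 on the Rrm3 arrays. All Rrm3 values were above all Pol2 values while all stayed far under the array median, and the difference was 1.47 ± 0.25 (limma adjusted p = 0.383).

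Q0190B had values of -2.14, -2.58, -1.76 and -1.81 in the Pol2 IP and 0.06, 0.07, -0.96, -0.09 and -0.76 in the Rrm3 IP. The difference was 1.75 ± 0.31 (limma adjusted p = 0.383). The large mitochondrial rRNA feature 21S_RRNA0, chosen after its values were seen, had Pol2 values of -1.14, -1.41, -1.59 and -1.13 and Rrm3 values of 0.29, 0.49, 0.09 and -0.11, a difference of 1.51 ± 0.25 (limma adjusted p = 0.383). The groups did not overlap in either. Q0085 (1.77 ± 0.49), Q0185D (1.28 ± 0.30), Q0190A (1.25 ± 0.25) and Q0185H (1.04 ± 0.33) were separated in the same direction on all 9 arrays. Q0350 had the highest difference of the table, 1.88 ± 0.50, with a value of -3.22 on Pol2 array 086 beside -1.15 to -1.32 on the others. The lowest members were Q0040 at -0.33 ± 0.33 and Q0225 at -0.13 ± 0.28. With array 136 turned as its label says, 0 of the 77 features were separated. The separated features were far under the median on array 136 and move far above it when turned. Overlap was then fixed in advance, so this count cannot decide whether the groups differ. With each array scaled to the same spread, 14 features passed the threshold, and 7 of the 77 mitochondrial features were among them. These 7 were INTQ0185A, Q0085, Q0190A, Q0190B, 21S_RRNA0, Q0185D and Q0185A, at adjusted limma p-values from 0.00908 to 0.0346. The scaling stretches the Pol2 arrays and shrinks most Rrm3 arrays, which by itself raises the difference of a feature low in both IPs. INTQ0185A went from 1.47 to 2.84 that way.

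Ribosomal protein genes, among the most strongly transcribed by RNA polymerase II in rich medium, were above the array median in both IPs and further above it on most Rrm3 arrays. For the 74 large-subunit genes tested the median was 0.30, 0.18, 0.26 and 0.25 on Pol2 arrays 039, 086, 136 and 230. It was 0.69, 0.06, 0.95, 0.84 and 0.44 on Rrm3 arrays 041, 031, 088, 184 and 185. Again 4 Rrm3 arrays lay above the Pol2 range and array 031 below it. The median difference was 0.23, with 67 of 74 positive, 8 (10.8%) separated upward and 0 downward. For the 52 small-subunit genes it was 0.26, with 46 positive, 4 (7.69%) separated upward and 0 downward. Without array 031 the medians were 0.49 and 0.43, and 26 of 74 and 17 of 52 genes were separated upward. Without array 088 both medians were 0.14, and so was the small-subunit median without array 041. Of the genes with a value on array 136, 1 of 38 large-subunit and 1 of 24 small-subunit genes were separated upward.

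RPL1A, of the large subunit, had Pol2 values of 0.36, 0.38 and 0.28 on arrays 039, 086 and 230 and Rrm3 values of 0.78, 2.19, 1.35, 0.80 and 0.71, a difference of 0.86 ± 0.34 (limma adjusted p = 0.839). RPL31A followed at 0.76 ± 0.32 with overlapping groups. The 4 separated small-subunit genes were RPS27A (0.83 ± 0.32), RPS14B (0.74 ± 0.26), RPS6B (0.71 ± 0.26) and RPS10B (0.67 ± 0.32), the last 3 named after their values were seen. RPS6B was measured on all 9 arrays, at 0.36, 0.32, 0.40 and 0.51 in the Pol2 IP and 0.64, 1.66, 1.39, 1.06 and 0.84 in the Rrm3 IP. RPS11A, at 0.80 ± 0.41, overlapped. The lowest small-subunit genes were RPS14A at -0.38 ± 0.54, where array 031 was the lowest Rrm3 value at -0.48, and RPS15 at -0.28 ± 0.26. Regions on the 5′ side of ribosomal protein genes had a median difference of 0.19 over 105 and those on the 3′ side 0.17 over 109. The 5′ median was 0.12 without array 088, and the 3′ median was 0.05 without array 041, 0.10 without 088, 0.11 without 230 and 0.34 without 031. The 2 sides had different levels. The 5′ regions had a Pol2 median of -0.13 and an Rrm3 median of 0.08, and the 3′ regions 0.20 and 0.38.

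Other strongly transcribed groups gave smaller medians that rested on how array 031 was treated. Glycolysis and fermentation genes were high in both IPs, with per-array medians of 0.86, 0.55, 0.93 and 0.94 for Pol2 and 1.03, 1.81, 1.30 and 1.02 on Rrm3 arrays 041, 088, 184 and 185, but -0.32 on array 031. Their median difference was 0.04 over 15 genes, with 0 separated. It was 0.40 without array 031, -0.24 without array 088 and -0.25 with arrays scaled to the same spread. The extremes were TPI1 (triose phosphate isomerase) at 0.43 ± 0.37 and PFK1 (phosphofructokinase) at -0.39 ± 0.53, the latter with -2.29 on array 031 and 0.53 to 0.66 on the other Rrm3 arrays. Translation factor genes had a median of 0.12 over 16 genes, and 0.38 without array 031 but 0.04 without 088 or 184. YEF3, which encodes elongation factor 3, was at 0.94, 0.55, 1.04 and 1.20 in the Pol2 IP and 1.73, 0.90, 2.06, 1.67 and 1.73 on Rrm3 arrays 041, 031, 088, 184 and 185. Array 031 was the only Rrm3 array in the Pol2 range, and the difference was 0.71 ± 0.28 (limma adjusted p = 0.839). EFB1, of elongation factor 1B, was the 1 separated member at 0.68 ± 0.30. TEF1, of elongation factor 1A, was lowest at -0.34 ± 0.69, with -1.95 on array 031 and 1.76 to 2.24 on the other 3 Rrm3 arrays that measured it. TEF1 has a near-identical copy, TEF2, whose DNA can reach the same spot.

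Histone genes had a median of 0.12 over 10 (0.40 without array 031, 0.00 without array 041), from HHF2 at 0.89 ± 0.43, a histone H4 gene, to HTZ1 at -0.41 ± 0.38, the H2A variant gene, and 0 were separated. Chaperone genes had a median of -0.06 over 14 (-0.14 without array 185, 0.10 without array 230), from HSP26 at 0.41 ± 0.38 to HSP60 at -0.44 ± 0.42, and 0 were separated. Genes of cell surface and transport proteins had a median of 0.17 over 14 (-0.05 with arrays scaled to the same spread, 0.03 without array 088, 0.34 without array 031). The phosphate transporter gene PHO84 was the 1 separated member, and it was also 1 of 2 separated phosphate regulon genes (median 0.07 over 12, -0.09 without array 088 and 0.28 without array 031). It was high in both IPs, at 0.85, 0.49, 1.16 and 1.20 for Pol2 and 1.35, 1.24, 2.11, 1.26 and 1.84 for Rrm3, a difference of 0.66 ± 0.28 (limma adjusted p = 0.839). The other separated phosphate gene was VTC3, of the vacuolar polyphosphate synthase complex, at 0.81 ± 0.33. Ribosome assembly genes had a median of 0.15 over 29, with GAR1 separated upward (0.62 ± 0.28) and ERB1 downward (-0.39 ± 0.22), the latter not with array 136 turned. Hexose transporter genes had a median of 0.06 over 7 (-0.10 with that scaling, -0.23 without array 185, 0.19 without array 184), and their lowest member was HXT5 at -0.90 ± 0.39 with overlapping groups.

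Genes of the galactose pathway, which is off in glucose medium, were lower in the Rrm3 IP, although none passed the test. The list includes the regulators GAL4 and GAL80. All 7 differences were negative, with a median of -0.36, and 3 of the 7 were separated downward. GAL1, GAL7 and GAL10 are neighbours and may share fragments of sheared DNA, so the 7 are not independent. Their per-array medians were 0.06, 0.34, 0.05 and 0.27 on Pol2 arrays 039, 086, 136 and 230 and 0.04, -0.40, -0.39, -0.59 and -0.29 on Rrm3 arrays 041, 031, 088, 184 and 185. All 5 Rrm3 medians were below all 4 Pol2 medians, narrowly so for Rrm3 array 041 at 0.04 and Pol2 array 136 at 0.05, where 3 of the genes had a value. GAL3, which encodes the galactose sensor, had values of 0.10, 1.07 and 1.15 on Pol2 arrays 039, 086 and 230 and -0.80, -1.15, -0.55, -0.16 and 0.02 on the Rrm3 arrays. The difference of -1.35 ± 0.30 (limma adjusted p = 0.839) was among the largest downward. GAL7, of galactose phosphate uridylyltransferase, had values of 0.03, 0.37, 0.05 and -0.12 in the Pol2 IP and -0.24, -1.04 and -1.20 on Rrm3 arrays 041, 184 and 185, a difference of -0.83 ± 0.29. GAL2, the transporter gene, was separated at -0.48 ± 0.26 and was named after its values were seen. GAL1, GAL4, GAL10 and GAL80 overlapped, with differences of -0.15 to -0.36. Genes of meiosis and sporulation, which are also silent in growing haploid cells, had a median of 0.04 over 34 genes (-0.11 without array 039, 0.18 without array 230), from MSH4 at 0.77 ± 0.43 to MEK1 at -0.81 ± 0.34, with SPO74 alone separated, upward. The median of these genes was 0.30 on the arrays as scanned alone and -0.40 on the turned arrays alone.

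The loci that encode the fork proteins had overlapping groups. RRM3 itself had a difference of -0.04 ± 0.37, with Pol2 values of -0.18, -0.26 and -0.31 inside the Rrm3 range of -1.04 to 0.26. POL2 had 0.07, 0.16, 0.21 and 0.03 in the Pol2 IP and 0.07, 1.10, 0.26, -0.13 and -0.43 in the Rrm3 IP, a difference of 0.01 ± 0.28. The genes of the other polymerase epsilon subunits, DPB2 (-0.30 ± 0.37), DPB3 (-0.36 ± 0.34) and DPB4 (-0.42 ± 0.38), had overlapping groups. Replisome genes had a median of -0.19 over 30 (-0.10 without array 184), with 8 positive and 0 separated, from RFC4 at 0.36 ± 0.27 to POL12 at -0.95 ± 0.60. Genes of sulphur and methionine metabolism had a median of -0.17 over 13 (-0.09 without array 088, -0.11 without array 230), and MET5, of sulphite reductase, was the 1 separated member at -0.44 ± 0.22.

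Intergenic regions differed by the orientation of the genes around them. Convergent regions, which lie between the 3′ ends of both flanking genes, had a median difference of 0.15 over 1205 regions, with 51 (4.23%) separated upward and 9 (0.747%) downward. Of those measured on array 136, 9 of 569 (1.58%) were separated upward, near the background there, and of the others 42 of 636 (6.60%). Divergent regions, between 2 starts, had -0.09 over 1276, with 16 (1.25%) upward and 31 (2.43%) downward. Tandem regions, between an end and a start, had 0.01 over 2333, with 55 (2.36%) upward and 44 (1.89%) downward. ORFs had -0.07 over 6055, with 99 (1.64%) upward and 200 (3.30%) downward. Over all features tested the shares were 2.72% upward and 2.34% downward, so the downward share of divergent regions was near that of all features. On Pol2 arrays 039, 086, 136 and 230 the convergent median was 0.01, -0.04, -0.05 and 0.11, and on Rrm3 arrays 041, 031, 088, 184 and 185 it was 0.12, 0.14, 0.14, 0.41 and 0.18. All 5 Rrm3 arrays, array 031 included, lay above all Pol2 arrays, narrowly so for Rrm3 array 041 at 0.12 and Pol2 array 230 at 0.11. Without array 184 the median difference was 0.09. The convergent median minus the divergent one was 0.06, -0.00, 0.09 and 0.19 on the Pol2 arrays and 0.26, 0.22, 0.35, 0.55 and 0.31 on the Rrm3 arrays, without overlap. The nearest were 0.22 on Rrm3 array 031 and 0.19 on Pol2 array 230. These values were not scaled for the wider spread of most Rrm3 arrays, which was 1.06 on array 031 and 0.436 on array 230.

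**Figure D4:**
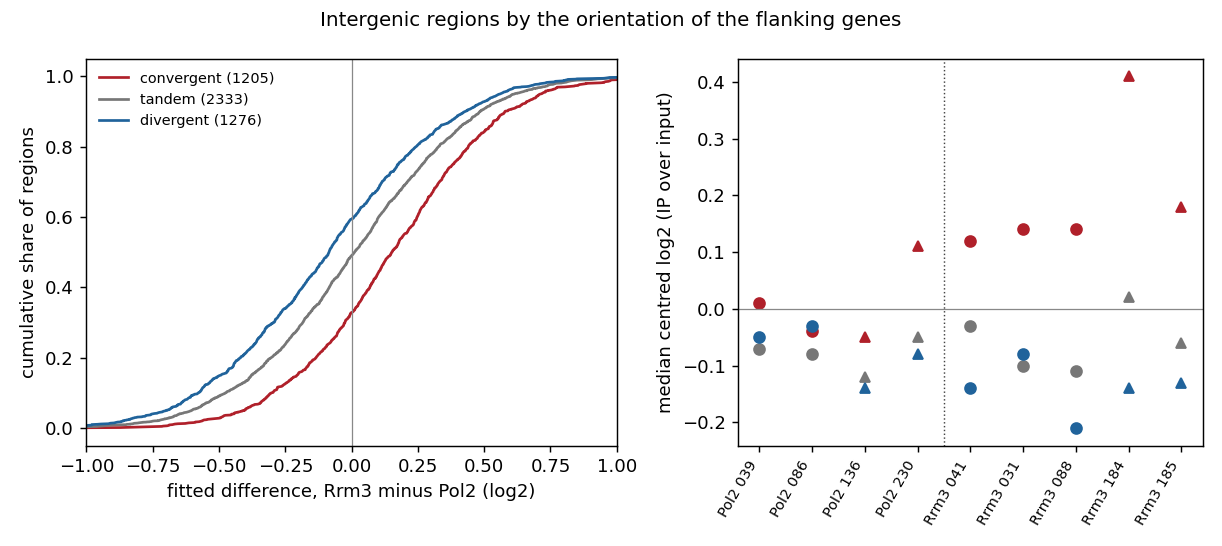
Left, cumulative share of intergenic regions by fitted difference between the Rrm3 IP and the Pol2 IP (log2), for convergent (red), tandem (grey) and divergent (blue) regions; right, their median centred log2 ratio on each array, with triangles for turned arrays. The convergent curve lies to the right, with a median of 0.15 against -0.09 for divergent regions. Its array medians are 0.12 to 0.41 on Rrm3 arrays and -0.05 to 0.11 on Pol2 arrays.

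Input signal moved with these medians. Over all features the median difference was 0.17 in the decile with the dimmest input and -0.14 in the brightest decile, and convergent regions had a median input at percentile 40.4 and divergent ones at percentile 55.1. The part of input signal in the differences was not tested beyond what follows and the alternatives with loess and without dim spots. Within quintiles of input signal, from dimmest to brightest, the convergent median was 0.21, 0.17, 0.15, 0.12 and -0.08. The divergent median was 0.11, -0.05, -0.06, -0.12 and -0.17, lower in each quintile. tRNA genes were bright, with a median input at percentile 82.1, and the 28 of them in the brightest quintile had a median difference of 0.40, where all features had -0.12.

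IYLL011W, the convergent region between SOF1 and PSR1, had values of -0.87, -0.55 and -1.50 on Pol2 arrays 039, 086 and 230 and 0.34, 0.77, -0.01, 0.52 and -0.39 on the Rrm3 arrays. It was separated, with a difference of 1.25 ± 0.32 (limma adjusted p = 0.839). IYKL189W, between HYM1 and PXA2, had a larger difference of 1.32 ± 0.54 with overlapping groups. Among divergent regions the lowest were IYPR139C at -1.38 ± 0.73, which overlapped, and IYML004C at -1.27 ± 0.32, which did not. The highest divergent region was IYPR176C at 1.14 ± 0.44. Over 9661 pairs of an intergenic region and an adjacent ORF, the differences correlated with r = 0.21 across pairs, which share arrays and fragments of sheared DNA.

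The 12 features with the largest difference in each direction among those measured on all 9 arrays and separated are shown by array in the plot of named features, and none passed (adjusted limma p 0.383 to 0.841). Of the 4733 features on all 9 arrays, 37 were separated upward and 131 downward. Of the 12 upward, 6 were mitochondrial: Q0085, Q0190B, INTQ0185A, Q0185D, Q0190A and Q0185H. Mitochondrial features were 77 of the 12411 tested, a wider set than the 4733 from which the 12 were drawn. The tRNA-flanking region ITE(UUC)C had values of -0.19, -0.52, -0.96 and -0.49 in the Pol2 IP and 0.24, 0.56, 0.58, 1.34 and 0.29 in the Rrm3 IP, a difference of 1.15 ± 0.29. The region IYKL072W, between STB6 and the noncoding gene YNCK0010W, was low in both, at -1.43 to -1.59 for Pol2 and -0.23 to -1.08 for Rrm3, a difference of 0.86 ± 0.23. NKP1, of the kinetochore (0.84 ± 0.33), YDR396W (0.83 ± 0.27), LSM2, of an RNA-binding complex (1.40 ± 0.58), and YHR039BC (0.95 ± 0.48) completed them. With array 136 turned as its label says, NKP1 and YDR396W alone of the 12 stayed separated. The others were below the median on array 136, so turning moved them above it. LSM2 had 2.85 on array 031 and -0.62 to 0.05 on the other Rrm3 arrays, and YHR039BC 2.62 on array 031 and -0.21 to 0.50.

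Of the 12 downward, 3 were divergent intergenic regions, a class of 1276 among the 12411 features tested. IYML004C, between GLO1 and YML003W, had values of 0.79, 0.51, 1.03 and 0.74 in the Pol2 IP and 0.31, -0.40, -0.51, -0.37 and -1.40 in the Rrm3 IP. IYGR009C, between SEC9 and NMA2, had 0.27, -0.23, 0.19 and 0.30 against -0.74, -1.84, -0.97, -1.05 and -0.91, a difference of -1.21 ± 0.27. IYAL014C, between SYN8 and DEP1, had 0.35, 0.22, 0.16 and 0.34 against -0.27, -1.30, -1.09, -0.71 and -0.89, a difference of -1.11 ± 0.26. In each the Pol2 values lay near or above the array median and most Rrm3 values below it. The ORFs were OSW2 (-1.30 ± 0.32), MAM33 (-1.11 ± 0.47), YHR140W (-1.10 ± 0.40), PAL2 (-1.07 ± 0.26), HES1 (-1.06 ± 0.27), MUD2 (-1.04 ± 0.28), EST1 (-1.04 ± 0.37), MRPL35 (-1.02 ± 0.29) and NPP2. EST1 encodes a subunit of telomerase, HES1 a protein of the oxysterol-binding family and MUD2 a splicing factor. NPP2 had the largest fitted difference of these, -1.72 ± 1.18, which rested on a value of -7.19 on array 031, beside -0.25 to 0.12 on the other Rrm3 arrays and 0.19 to 0.69 in the Pol2 IP. With array 136 turned, 8 of the 12 stayed separated, and NPP2, IYML004C, PAL2 and EST1 overlapped. Of 24 measured neighbours of these features, 18 had a difference of the same sign: 3 of 5 beside upward features and 15 of 19 beside downward ones. The share of same-sign neighbours over all pairs was not computed. Of all differences tested, 42.0% of those of ORFs and 55.4% of those of intergenic regions were positive. Neighbours also share fragments of sheared DNA, so these counts are a description only. IYLR053C, beside OSW2, was itself separated at -0.91 ± 0.28, and so was YML003W, beside IYML004C, at -0.52 ± 0.23, but both overlapped with array 136 turned.

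**Figure D5:**
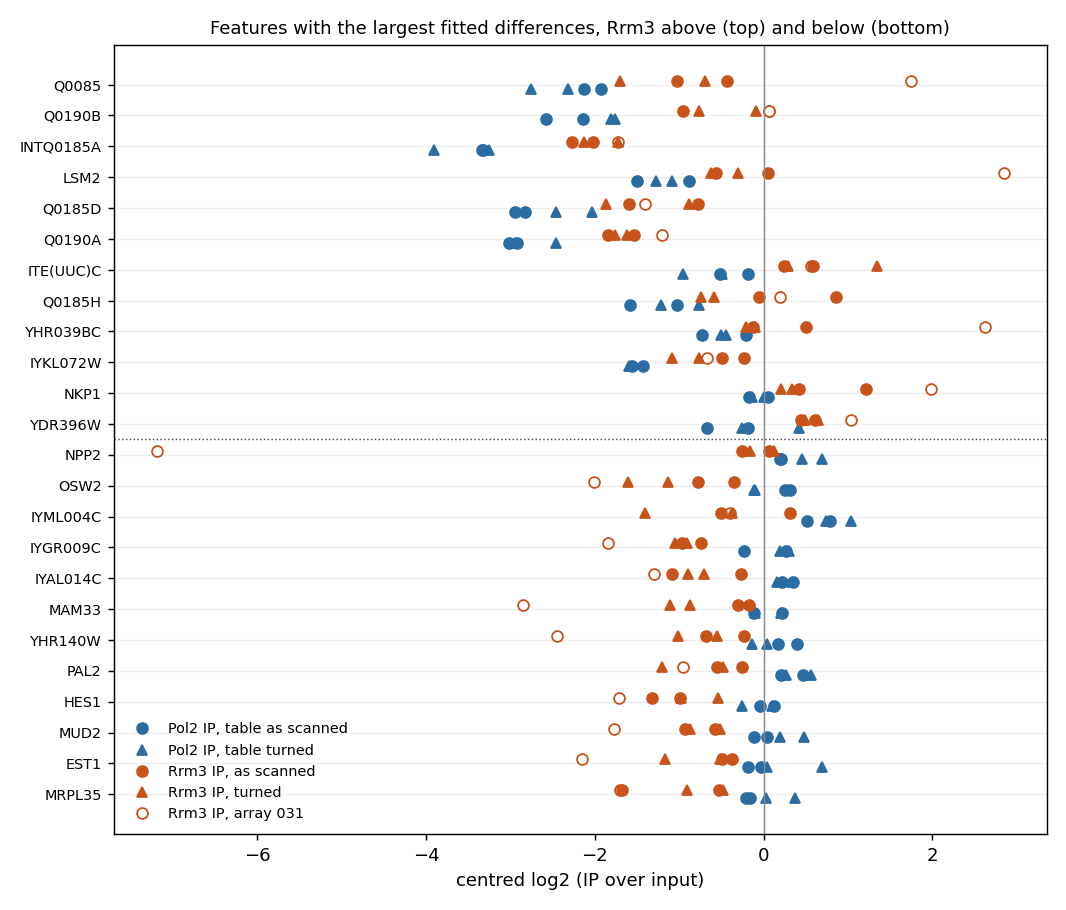
Centred log2 ratio of IP over input on each array for the 24 features with the largest fitted differences among those measured on all 9 arrays with separated groups, Rrm3 above Pol2 over the dotted line and below it under the line. Symbols are as in the plot of list medians, and the open symbols of array 031 are the extreme Rrm3 value in LSM2 (2.85), YHR039BC (2.62) and NPP2 (-7.19). With array 136 turned as its label says, 2 of the upper 12 and 8 of the lower 12 stay separated.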

How the data were processed

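The series measured IP over input DNA by 2-colour hybridisation in Saccharomyces cerevisiae. The authors deposited 1 table of log2 ratios per array and the scanner intensity of every spot, per the file headers. Each column of the deposited log2 table was the mean over unflagged spots of the scanner's normalized log ratio, turned in sign on the dye swaps and on array 136. Scale and direction were found by setting the table against the scanner values (r from 0.9994 to 0.9999 for columns as scanned and from -0.9999 to -0.9992 for turned ones). The base matched the scanner's log2 column. Medians of the columns ran from -0.458 to 0.088. The labels and headers do not state how the scanner normalized its ratios or which genome build the array followed, so no coordinates are printed. No sequences are printed either.

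Each array was centred on its median. limma 3.58.1 in R 4.3.3 fitted group and dye orientation (array 136 counted as swapped, like the sign of its deposited column) to the 9 arrays for each feature on at least 3 arrays of each group, two-sided, with Benjamini-Hochberg adjustment over all features and a threshold of 0.05. Missing values were left out, not imputed. The fit was run on simulated data with independent noise, where mean estimates were required to lie near the planted differences. Recovery of those differences at the threshold was not required. Of 6203 ORF names, 5677 matched RefSeq (R64), which was used for symbols and for neighbouring genes only. A region named for an ORF lay on its higher-coordinate side in that order.

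The named features were RRM3 and the polymerase epsilon genes; the 12 with the largest difference each way among separated features on all 9 arrays, since none passed; and the 2 highest and 2 lowest of a list. Neighbours of the 24 were included. The members, lists and rules were chosen with earlier results of these data known. The alternatives changed array 136's direction, the dye term, centring, scaling, background correction, loess, filters, the variance model, the arrays fitted and each array in turn. In addition, 3 alternatives and the counts without array 031, with array 136 turned or split by array 136 were chosen after seeing the data. No paired analysis was possible because the groups share no replicate numbers. The other 7 arrays of the series, 1 of them with labels that disagree, enter 1 alternative or none.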

Additional observations from a re-analysis of the deposited data

Results flagged for a closer look

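A value stands here where 1 array of a group of 4 or 5 lay apart from the rest, its gap to the nearest other value taking up more of the group's range than Dixon's 95% critical value. Chance marks about 1 in 20 groups, and 20 of 247 were marked, 11 of them for Rrm3 array 031.

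On array 031 the Rrm3 median of tRNA genes was -0.29 (nearest other Rrm3 array 0.45) and that of regions beside tRNA genes -0.18 (0.19). Among single features, array 031 lay below the other Rrm3 arrays at NPP2 (-7.19), IYGR009C (-1.84), TQ(UUG)L (-1.86), RPS14A (-0.48), PFK1 (-2.29), TEF1 (-1.95) and GAL4 (-0.86). It lay above them at LSM2 (2.85) and YHR039BC (2.62).

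Rrm3 array 184 lay above the others for the median of convergent regions (0.41) and at HMLALPHA1 (-0.23), and below them at GAL80 (-0.71) and GAL2 (-0.80). Rrm3 array 041 lay below them at GAR1 (0.53). In the Pol2 IP, array 230 stood apart for the median of regions beside tRNA genes (0.01), array 136 for regions beside LTRs and Ty elements (-0.46) and at INTQ0185A (-3.90), and array 086 at Q0350 (-3.22).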

How the results depend on the processing

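Across 30 alternatives, 27 gave 0 calls by limma in both directions, with 269 to 1503 features at an unadjusted p under 0.05. Scaling every array to the same spread gave 14 higher features, that scaling without array 031 gave 4, and fitting all 15 grouped arrays gave 1, the mitochondrial 21S_RRNA0. None was lower. The cause was not tested. Without centring, the median of all features was -0.15, and over features on all 9 arrays -0.09; list medians below are relative to these shifts. The sign of the median difference held under all 30 alternatives for 23 of 38 lists, among them tRNA genes (0.19 to 0.49), snRNA and snoRNA genes (0.32 to 0.50), mitochondrial DNA (0.23 to 0.61), convergent regions (0.09 to 0.21) and galactose genes (-0.55 to -0.11). The galactose value of -0.11 was that of GAL4 alone, the only one of these genes on all 9 arrays.

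Medians that moved by more than the spread between arrays were these. With arrays scaled to the same spread (and also without array 031) they were 0.52 (0.49) for LTR and Ty features, 0.41 (0.41) for regions beside them, 0.98 (0.91) for silent mating ORFs and -0.08 (-0.12) for polymerase epsilon genes. The last were -0.16 without arrays 031 and 041, -0.47 on forward arrays, -0.08 over features on all 9 arrays, -0.17 with array weights and -0.16 with weights and no array 031. POL2 and DPB3 were the only polymerase epsilon genes on all 9 arrays. Silent mating ORFs were at -0.17 with array 136 as labelled. Features on all 9 arrays gave -0.08 for replisome and -0.11 for galactose genes, the latter from GAL4 alone. Galactose genes were at -0.14 without background subtraction. Leaving out each array gave -0.24 to -0.10 for replisome genes and 0.04 to 0.38 for translation factor genes, the latter 0.36 without arrays 031 and 041. Hexose transporter genes were at -0.27 without failed PCR products. On the turned arrays alone (230, 136, 184 and 185, with array 136 as deposited although its label gives the other dye), meiosis genes were at -0.40, divergent regions at -0.02 and regions beside centromeres at 0.59, the last -0.00 without arrays 031 and 041. Scan date as a block was not run because the files give no date. Dim and flagged spots, on array 136 above all, limit these values.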
